A study of Homo sapiens with 12 samples.

Results

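The genes described here are the 5 subunits of the transcription factor NF-kB (NFKB1, NFKB2, RELA, RELB and REL), the inhibitors NFKBIA and NFKBIE, the feedback enzyme TNFAIP3, and the target genes ICAM1 and BIRC3. They were chosen by gene symbol, with earlier results of these data known, and make up 10 of the 38611 genes in each table. RNA was sequenced in 12 libraries of 2 human cell lines, DU145 and PC3, both taken from prostate cancer metastases, with 3 libraries in each of 4 groups. The groups were docetaxel-resistant DU145, parental DU145, docetaxel-resistant PC3 and parental PC3. Docetaxel is a taxane that stabilises microtubules. Per the labels, exposure began at 10 for DU145 and 0.5 for PC3 and was doubled stepwise to a final half-maximal inhibitory concentration of 1800 for DU145 and 15 for PC3, in a unit the submitters write as nm/ml. All 4 groups grew in the same serum-containing medium. The labels do not state whether a resistant subline is 1 clone or whether drug was present at harvest.

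NF-kB subunits act as dimers, which inhibitor proteins of the IkB family hold in the cytoplasm of resting cells. When a receptor for a cytokine or a microbial product is engaged, IKK kinases mark the inhibitor for destruction and the dimer enters the nucleus. Among the genes switched on are the pathway's own brakes, chiefly NFKBIA and TNFAIP3, so the transcripts of inhibitors are commonly read beside those of other targets. RNA levels give neither the location nor the activity of the proteins.

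Libraries held 62513103 to 72530254 counts. Mitochondrially encoded genes took 7.08 ± 0.05% of the counts in resistant DU145 and 4.11 ± 0.17% in parental DU145, and 3.504 ± 0.04% in resistant PC3 and 5.82 ± 0.20% in parental PC3 (SD, n = 3 each). The epithelial markers KRT8, KRT18 and EPCAM summed to 1283 to 1328 CPM (the count relative to the TMM-scaled library total) in resistant DU145 against 682 to 717 in parental DU145, and to 229.6 to 234 in resistant PC3 against 451 to 471 in parental PC3. All 3 were called higher in resistant DU145 and all 3 lower in resistant PC3. Their part in the results was not tested. CTNNA1, a gene reported lost in PC3, averaged 2.23 and 2.92 CPM in resistant and parental PC3, and 383 and 519 CPM in resistant and parental DU145. Of 7 leukocyte markers CD68, which tumour cells also express, made up nearly all of the sum, at 19.8 to 39.1 CPM in resistant and 16.2 to 19.6 CPM in parental DU145, and 75.2 to 87.2 CPM in resistant and 47.6 to 62.3 CPM in parental PC3. The pan-leukocyte gene PTPRC was at 0 in both DU145 groups and averaged 0.07 CPM in resistant and 0.15 CPM in parental PC3. The 5 endothelial markers summed to under 1 CPM in every DU145 library, and to 53.9 to 77.3 CPM in resistant and 177 to 233 CPM in parental PC3, mostly KDR. The 5 fibroblast markers summed to 4.93 to 9.42 CPM in resistant and 21.3 to 35.3 CPM in parental DU145, and to 13.5 to 18.5 CPM in resistant and 119.7 to 126 CPM in parental PC3, mostly COL1A1 in PC3. In resistant PC3 the first library was less like the others of its group than those were alike. It was kept, and leaving it out changed no call of the 10 genes within PC3 or in the test between the lines.

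Of the 10 genes, 5 rose in resistant DU145 and fell in resistant PC3: NFKB2, RELB, NFKBIA, NFKBIE and ICAM1. The share of all genes called with opposite signs in the 2 lines was not computed, so this count has no background beside it. In resistant DU145, NFKB2, RELB, NFKBIA, NFKBIE, TNFAIP3 and ICAM1 were higher and BIRC3 was lower than in parental DU145, and NFKB1, RELA and REL did not pass the test. In resistant PC3, TNFAIP3 was higher and NFKB1, NFKB2, RELA, RELB, NFKBIA, NFKBIE and ICAM1 were lower than in parental PC3, and REL and BIRC3 did not pass. TNFAIP3 was the only 1 of the 10 that was higher in the resistant subline of both lines. Genes were called at a Benjamini-Hochberg adjusted p under 0.05 in edgeR's quasi-likelihood F test over all 24128 genes with enough counts to test, all 10 among them. The calls came to 7 of the 10 in DU145, where 39.6% of all genes tested were called, and to 8 of the 10 in PC3, where 44% were. By group mean FPKM, which divides by gene length, the 10 genes ranked from percentile 50.0 (REL) to 99.3 (ICAM1) of the genes tested, both in parental PC3. The shares cover genes at all levels, and no share was taken among genes of similar level. By direction, 6 were higher in resistant DU145 (18.9% of all genes) and 1 lower (20.7%), while 1 was higher in resistant PC3 (22.4%) and 7 lower (21.6%). The median log2 change of the 10 was 0.48 in DU145 and -0.55 in PC3, where the median over all genes tested was 0.00 in each. Nothing in the labels says that the 3 libraries of a group came from separate cultures, so each p-value reflects the spread among 3 libraries that may be technical copies. Of the calls of at least 2-fold, 3 were higher (7.19% of all genes) and 1 lower (5.8%) in resistant DU145, and none was higher (7.16%) and 4 were lower (9.89%) in resistant PC3.

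**Figure D1:**
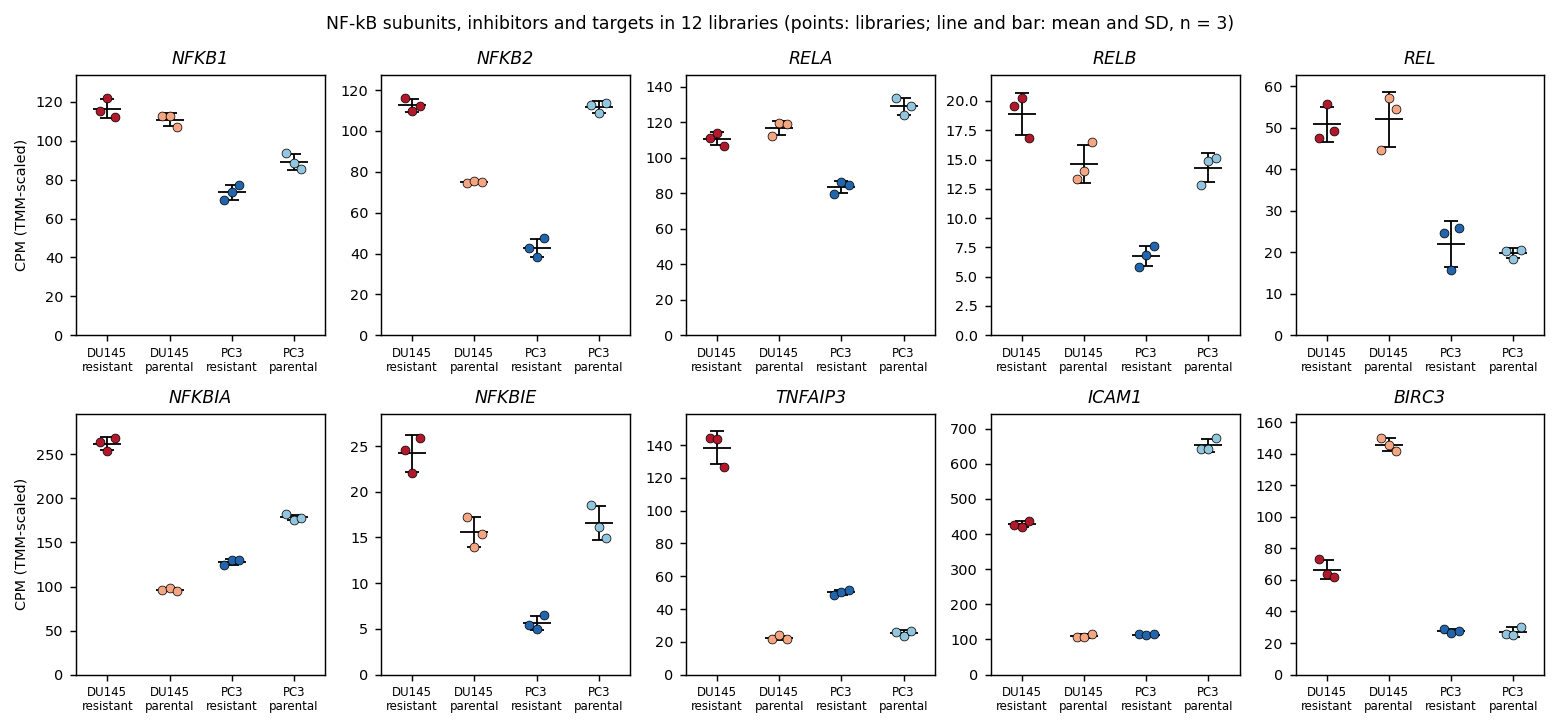
Level of each of the 10 genes in every library, in CPM scaled by TMM, for resistant and parental DU145 and resistant and parental PC3. Points are libraries and the line with its bar is the mean and SD (n = 3). Resistant and parental libraries lie on opposite sides in the 2 lines for NFKB2, RELB, NFKBIA, NFKBIE and ICAM1, and on the same side for TNFAIP3.

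**Figure D2:**
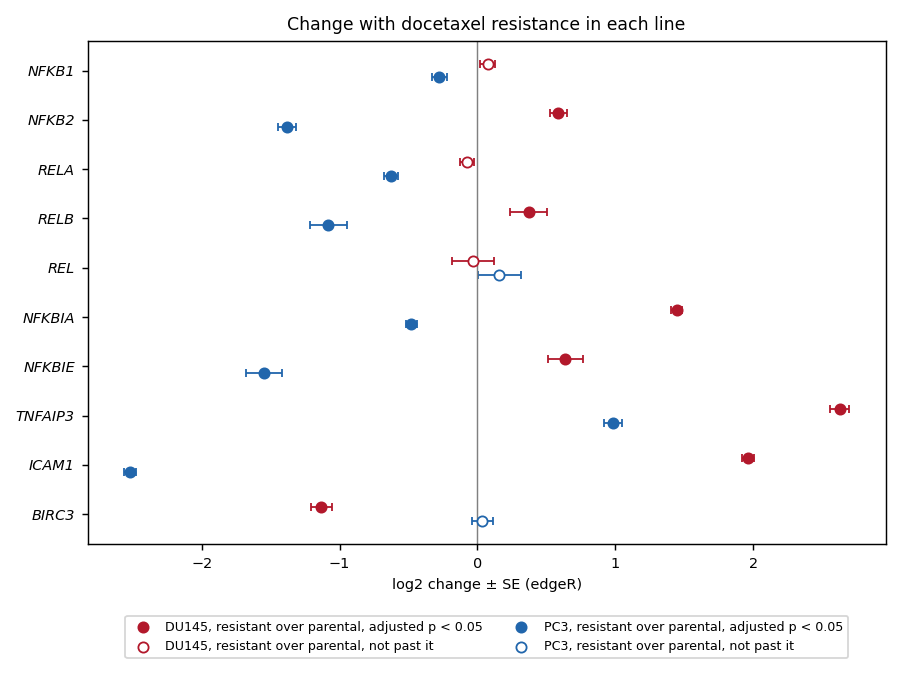
Log2 change of each gene with resistance (resistant over parental, edgeR, bars ± SE) in DU145 and in PC3; filled points have an adjusted p under 0.05. TNFAIP3 is right of 0 in both lines, and ICAM1 spans the widest range, from 1.96 in DU145 to -2.52 in PC3.

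Among the subunits, NFKB2 and RELB, partners in the non-canonical branch of the pathway, changed with opposite signs in the 2 lines. NFKB2 encodes the precursor p100, which acts as an inhibitor until it is cut to the p52 subunit, and lies at chr10:102394110-102402524 on the plus strand (GRCh38 coordinates, as for all genes below). Resistant DU145 libraries had 116, 109.6 and 112 CPM of NFKB2, against 74.5, 75.4 and 75.2 CPM in parental DU145. Every resistant library was above every parental library, with a log2 change of 0.59 ± 0.06 (SE; adjusted p = 1.2e-06, edgeR quasi-likelihood test). Resistant PC3 libraries had 42.9, 38.5 and 47.4 CPM of NFKB2, against 113, 109 and 114 CPM in parental PC3. Here all resistant libraries were far below the parental ones, by -1.38 ± 0.06 (adjusted p = 6.74e-11, edgeR), a level 2.6-fold higher in parental PC3. Of the neighbours of NFKB2, PSD (-1.79), FBXL15 (-1.43) and GBF1 (-0.14) were also called lower in resistant PC3, and NOLC1 (0.63) higher. In DU145 only NOLC1 was called among them (0.69). Groups that did not overlap were 7 of the 10 genes in DU145, where 51.2% of all genes tested did not overlap, and 8 of the 10 in PC3, where 54.4% did not.

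RELB (chr19:45001449-45038198, plus strand) is the activating partner of p52. Resistant DU145 libraries had 19.6, 20.2 and 16.9 CPM, against 13.4, 13.99 and 16.5 CPM in parental DU145. The lowest resistant and the highest parental library nearly met, and the log2 change of 0.37 ± 0.13 (adjusted p = 0.0344, edgeR quasi-likelihood test) lost its call without the first or second library of either DU145 group, with adjusted p up to 0.131. In PC3, resistant libraries had 5.84, 6.81 and 7.58 CPM of RELB, against 12.9, 14.9 and 15.2 CPM in parental PC3. The PC3 groups lay well apart, with a log2 change of -1.08 ± 0.13 (adjusted p = 5.41e-06, edgeR). None of the RELB neighbours APOC1, CLPTM1, CLASRP and ZNF296 passed in PC3, and APOC1 alone was called in DU145 (2.06).

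RELA and NFKB1 form the classical p65-p50 dimer, and their transcripts fell in resistant PC3 and did not pass the test in DU145. RELA (chr11:65653597-65663090, minus strand), the main activating subunit, had 79.6, 86.4 and 84.3 CPM in resistant PC3, against 133, 124 and 129 CPM in parental PC3. These groups did not overlap (log2 change -0.63 ± 0.05, adjusted p = 2.93e-08, edgeR quasi-likelihood test). In DU145 they did, at 111, 114 and 107 CPM in resistant and 112, 119 and 119 CPM in parental libraries (-0.08 ± 0.05, adjusted p = 0.241, edgeR). NFKB1 (chr4:102501331-102617302, plus strand), which encodes the p105 precursor of p50, had 69.7, 73.8 and 77.4 CPM in resistant PC3, against 93.6, 88.5 and 85.5 CPM in parental PC3. Its PC3 groups stood apart by a small step, -0.28 ± 0.05 on the log2 scale (adjusted p = 4.5e-04, edgeR). In DU145 NFKB1 averaged 117 ± 4.86 CPM in resistant and 111 ± 3.25 CPM in parental libraries, which overlapped (0.07 ± 0.05, adjusted p = 0.318, edgeR). An antisense gene, RELA-DT, overlaps RELA, but held 124 to 237 counts per library where RELA held at least 5319. The RELA neighbours PCNX3 (-0.49), SIPA1 (-0.83), KAT5 (-0.31) and RNASEH2C (-0.72) were also called lower in resistant PC3. Of these, SIPA1 (-0.39) and RNASEH2C (-0.19) were called lower in resistant DU145 as well. Beside NFKB1, MANBA (-0.65) was called lower and UBE2D3 (0.44) higher in resistant PC3. In resistant DU145, MANBA (-1.36), SLC39A8 (-0.35) and UBE2D3 (-0.18) were called lower. Whether such regions changed as a whole was not tested.

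REL (chr2:60881521-60931612, plus strand), the subunit best known from lymphocytes, passed no test with resistance. It had 47.6, 55.6 and 49.3 CPM in resistant DU145, against 44.5, 57.1 and 54.4 CPM in parental DU145. It had 24.7, 15.7 and 25.7 CPM in resistant PC3, against 20.3, 18.4 and 20.5 CPM in parental PC3. The groups overlapped in both lines, and the second resistant PC3 library was the lowest of all 12. REL shares its last part and its strand with a long noncoding gene, AC010733 (chr2:60925909-60931610), whose counts were uneven within groups. That gene held 441 counts in the second resistant PC3 library against 60 and 57 in the others of its group, and 1422 in the first parental DU145 library against 335 and 38 in the others of its group; in 3 of the 4 groups, parental PC3 being the exception, the library with most AC010733 counts had the fewest REL counts. With the counts of both genes summed, an alternative chosen after the data were seen, resistant PC3 libraries had 25.6, 22.7 and 26.5 CPM against 20.7, 18.7 and 20.9 CPM in parental PC3. The summed PC3 groups no longer overlapped, and the log2 change was 0.31 (adjusted p = 0.00882, edgeR quasi-likelihood test), against 0.16 ± 0.16 (adjusted p = 0.468) for REL alone. In DU145 the summed change was -0.17 (adjusted p = 0.149, edgeR), against -0.03 ± 0.15 (adjusted p = 0.925) for REL alone. Of the neighbours of REL, BCL11A (1.81) and PAPOLG (0.43) were called higher in resistant PC3. PAPOLG (0.30) was also called higher in resistant DU145, and NONOP2 and PUS10 passed in neither line.

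Levels can be set against each other between genes in FPKM, which divides by gene length. The 5 subunits together summed to 73.3 ± 2.06 FPKM in resistant DU145 and 65.3 ± 2.14 FPKM in parental DU145 (SD, n = 3 each). In PC3 the sum was 38.6 ± 2.06 FPKM in the resistant and 67.2 ± 1.61 FPKM in the parental group. The parental sums were thus close while the resistant PC3 libraries, at 37.0 to 40.9 FPKM, lay below all 9 others. NFKB2 made up 32.9 ± 1.39% of the sum in resistant DU145 and 25.1 ± 0.43% in parental DU145, but 22.8 ± 1.63% in resistant PC3 and 35.1 ± 0.44% in parental PC3. RELA made up 27.9 ± 0.21% in resistant and 33.7 ± 0.42% in parental DU145, and 38.4 ± 1.98% in resistant and 34.9 ± 0.55% in parental PC3. RELA was thus the largest share in all libraries of parental DU145 and of resistant PC3, and NFKB2 in all libraries of resistant DU145, while in parental PC3 the 2 were close. RELB held 5.59% to 8.61% and REL 2.22% to 6.20% of the sum as group means. These shares were not tested.

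**Figure D3:**
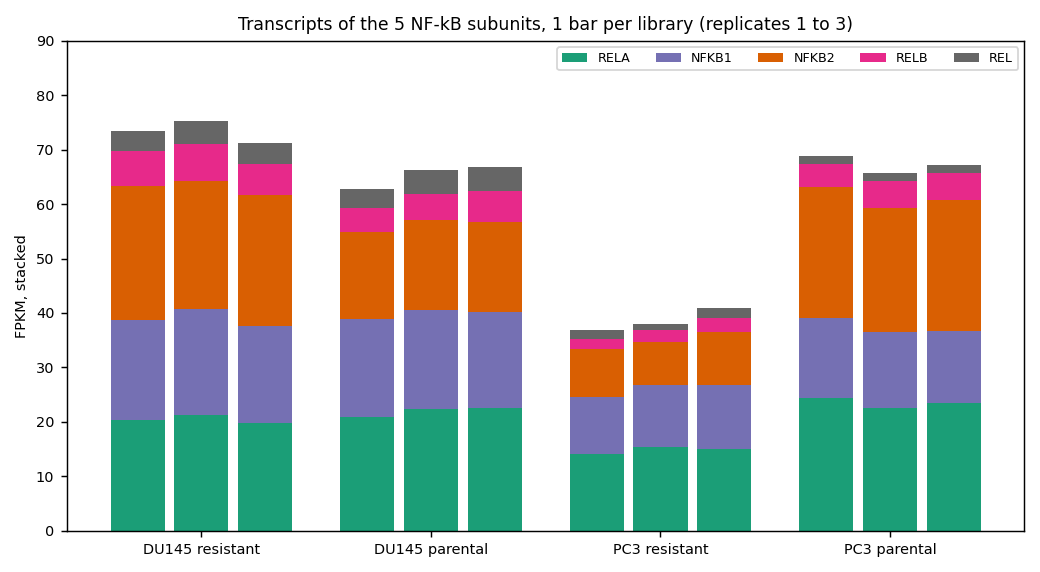
FPKM of RELA, NFKB1, NFKB2, RELB and REL stacked for each of the 12 libraries, 1 bar per library. The 3 resistant PC3 bars, at 37.0 to 40.9 FPKM, are the shortest, and the NFKB2 segment is wider in resistant than in parental DU145 and narrower in resistant than in parental PC3.

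The inhibitors and targets come with promoter sequences that can be read for the NF-kB site. RefSeq starts (GRCh38.p14) were matched for 8 of the 10 genes, with 12 starts in all; RELB and NFKBIE had no entry in the table. The 250 bases before the start of the 4 inhibitor and target genes that had an entry, NFKBIA (chr14:35404750-35404999, minus strand), TNFAIP3 (chr6:137867009-137867258, plus strand), ICAM1 (chr19:10270870-10271119, plus strand) and BIRC3 (chr11:102317234-102317483, plus strand), are shown 5′ to 3′ on the gene's strand, with motif matches in capitals. For the last 3 the RefSeq start lies inside the gene as the files place it.
NFKBIA: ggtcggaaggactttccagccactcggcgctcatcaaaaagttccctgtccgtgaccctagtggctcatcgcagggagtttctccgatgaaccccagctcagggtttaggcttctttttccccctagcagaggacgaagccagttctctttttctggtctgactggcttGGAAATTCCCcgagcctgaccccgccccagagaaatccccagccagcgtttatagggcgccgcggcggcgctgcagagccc
TNFAIP3: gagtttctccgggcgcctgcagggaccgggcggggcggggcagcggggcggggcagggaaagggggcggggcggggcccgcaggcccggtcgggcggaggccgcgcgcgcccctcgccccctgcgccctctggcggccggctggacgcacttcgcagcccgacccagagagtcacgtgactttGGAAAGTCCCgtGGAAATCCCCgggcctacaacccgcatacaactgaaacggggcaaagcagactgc
ICAM1: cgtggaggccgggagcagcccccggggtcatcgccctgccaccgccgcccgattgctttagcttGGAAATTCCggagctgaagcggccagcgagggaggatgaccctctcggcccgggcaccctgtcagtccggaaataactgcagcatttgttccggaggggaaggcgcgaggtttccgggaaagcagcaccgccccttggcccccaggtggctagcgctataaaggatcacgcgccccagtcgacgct
BIRC3: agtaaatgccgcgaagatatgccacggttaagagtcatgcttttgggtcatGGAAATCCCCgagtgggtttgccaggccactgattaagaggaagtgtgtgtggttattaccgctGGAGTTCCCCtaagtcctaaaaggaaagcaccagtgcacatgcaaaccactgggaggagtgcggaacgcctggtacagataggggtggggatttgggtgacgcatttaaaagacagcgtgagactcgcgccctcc
Capitals mark a match on either strand to the 10-letter kB consensus or to the 9-letter palindromic core GGAANTTCC, which overlaps it and was chosen after the sequences were seen. NFKBIA carried GGAAATTCCC at 81 to 72 bases before its start, which holds both motifs. TNFAIP3 carried GGAAAGTCCC and GGAAATCCCC within 70 bases of its start. ICAM1 carried only the core, GGAAATTCC, further upstream, and BIRC3 carried GGAAATCCCC and GGAGTTCCCC. NFKB1, NFKB2 and REL also had matches, at 1 of 2, 2 of 3 and the single start, and RELA had none in either window. In all, 6 of the 8 genes held the kB consensus in at least 1 window, where 11.8% of 27303 genes and 9.96% of 35114 promoters did. The core was present in 4 of the 8 genes, NFKB1, REL, NFKBIA and ICAM1, where 0.996% of genes and 0.826% of promoters held it. The core was picked from these same sequences, and the genes were picked for their place in the pathway. Neither share is therefore a test of enrichment. BIRC3 and TNFAIP3, with 2 consensus matches each, moved in opposite directions in resistant DU145. A match is a run of letters and does not show that a factor binds there.

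**Figure D4:**
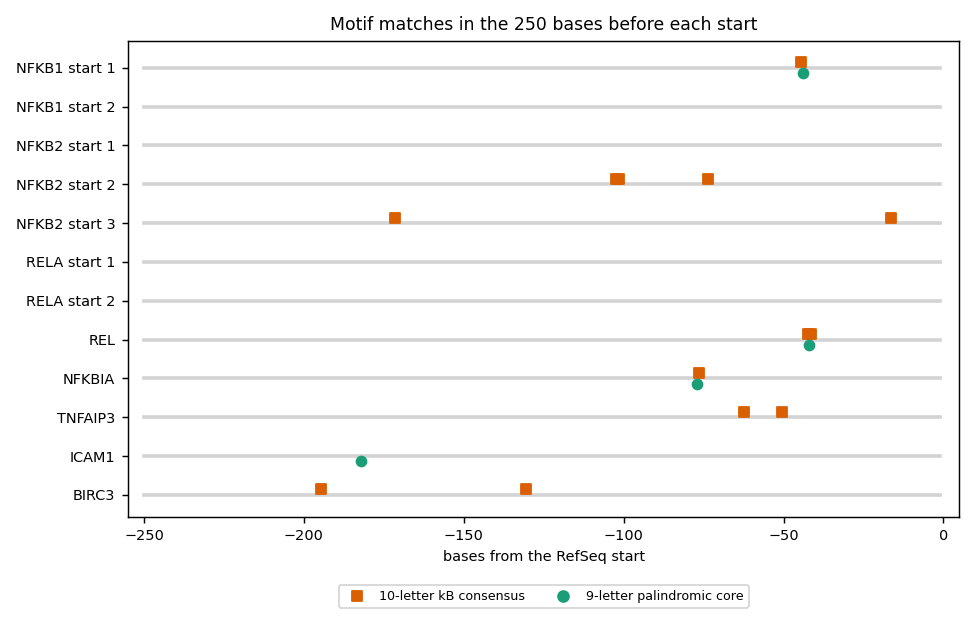
Position of motif matches in the 250 bases before each of the 12 RefSeq starts of the 8 genes matched, on either strand, in bases from the start. Squares are the 10-letter kB consensus and circles the 9-letter core; 7 of the 12 windows hold the consensus, and the ICAM1 window holds the core alone.

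NFKBIA (chr14:35401513-35404749, minus strand), the IkB-alpha inhibitor that NF-kB itself induces, rose in resistant DU145 and fell in resistant PC3. Resistant DU145 libraries had 264, 254 and 269 CPM, against 96.0, 98.1 and 94.9 CPM in parental DU145. All resistant libraries exceeded all parental ones, 2.72-fold on average (log2 change 1.45 ± 0.04, adjusted p = 2.9e-13, edgeR quasi-likelihood test). Resistant PC3 libraries had 124, 129.8 and 130.3 CPM, against 182, 176 and 178 CPM in parental PC3. The PC3 groups stood apart in the other direction (-0.48 ± 0.04, adjusted p = 4.64e-08, edgeR). Of the neighbours of NFKBIA, PSMA6 (0.69) was called higher in resistant DU145 alone, and RALGAPA1 (-0.75) lower in resistant PC3 alone. The mitochondrial share of counts was higher in resistant DU145 and lower in resistant PC3, as NFKBIA was, and with mitochondrial genes left out of the fit the NFKBIA changes were 1.46 and -0.47. That refit bears only on the scaling and cannot show whether the mitochondrial share and NFKBIA are linked, which was not tested.

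NFKBIE (chr6:44258166-44265788, minus strand), the IkB-epsilon inhibitor, changed in the same directions. Resistant DU145 libraries had 24.6, 22.0 and 25.9 CPM, against 17.3, 14 and 15.4 CPM in parental DU145. In PC3 the resistant libraries had 5.46, 5.02 and 6.504 CPM, against 18.6, 16.2 and 15.0 CPM in parental PC3. Neither pair of groups overlapped, with log2 changes of 0.64 ± 0.13 in DU145 (adjusted p = 7.67e-04) and -1.55 ± 0.13 in PC3 (adjusted p = 8.5e-08, both edgeR quasi-likelihood). The NFKBIE neighbours AARS2 (0.75 in DU145 and -0.56 in PC3), CDC5L (0.65 and -0.15) and SLC35B2 (0.19 and -1.36) were called with the same signs. HSP90AB1, also a neighbour, was higher in both lines (0.36 and 0.37). Whether the region changed as a whole was not tested. Taken per length, NFKBIA and NFKBIE together were 1.66 ± 0.10 times the FPKM of the 5 subunits in resistant DU145 and 0.735 ± 0.02 times in parental DU145. The same ratio was 1.41 ± 0.04 in resistant PC3 and 1.21 ± 0.02 in parental PC3 (SD, n = 3 each). So the ratio of the summed inhibitor transcripts to subunit transcripts was higher in all resistant libraries of each line than in its parental libraries. Both inhibitors were nevertheless lower in resistant PC3, where the subunit sum was lower too. The inhibitor sum is mostly NFKBIA, at 52.3 FPKM against 2.12 FPKM of NFKBIE in resistant PC3. NFKBIE was at 6.39 FPKM in parental PC3. It fell by a larger factor than the subunit sum, so its own ratio to the subunits was lower in resistant PC3. NFKBIA over RELA alone gave 5.47 ± 0.34 in resistant and 1.901 ± 0.07 in parental DU145, and 3.53 ± 0.07 in resistant and 3.19 ± 0.07 in parental PC3. No test was run on these ratios.

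TNFAIP3 (chr6:137867214-137883312, plus strand) encodes A20, a ubiquitin-editing enzyme that shuts off signalling upstream of the IKK kinases. Resistant DU145 libraries had 145, 144 and 127 CPM, against 21.5, 23.8 and 21.9 CPM in parental DU145. That is a 6.17-fold higher level (log2 change 2.63 ± 0.07, adjusted p = 2.57e-13, edgeR quasi-likelihood test), the largest change of the 10 genes in DU145. Resistant PC3 libraries had 48.8, 50.2 and 51.8 CPM, against 26.3, 23.6 and 26.4 CPM in parental PC3. The PC3 groups did not overlap either, at 1.98-fold (0.98 ± 0.07, adjusted p = 7.82e-09, edgeR). The antisense gene WAKMAR2 overlaps TNFAIP3 and held 10 to 291 counts per library, where TNFAIP3 held at least 1425. The TNFAIP3 neighbours IL20RA (-1.79), IFNGR1 (-0.53), PERP (-0.13) and ARFGEF3 (-2.79) were called lower in resistant PC3. In resistant DU145, IL20RA (-3.08) and PERP (-0.16) were called lower and ARFGEF3 (0.78) higher.

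ICAM1 (chr19:10271093-10285583, plus strand), the surface ligand for leukocyte integrins, showed the widest swing. Resistant DU145 libraries had 426, 420.1 and 438 CPM, against 107, 106 and 117 CPM in parental DU145. All resistant libraries were above the parental ones, 3.89-fold on average (log2 change 1.96 ± 0.04, adjusted p = 2.86e-14, edgeR quasi-likelihood test). Resistant PC3 libraries had 114, 112 and 115 CPM, against 642, 641 and 675 CPM in parental PC3. The level was thus 5.74-fold higher in parental PC3 (-2.52 ± 0.04, adjusted p = 1.84e-15, edgeR), and the libraries of resistant PC3 and of parental DU145 overlapped. The neighbouring gene ICAM5 had log2 changes of the same signs, 1.31 ± 0.17 in DU145 (adjusted p = 1.22e-05) and -2.02 ± 0.18 in PC3 (adjusted p = 1.12e-07, both edgeR), whereas MRPL4, on the other side, was higher in both lines (0.42 and 0.69). ZGLP1, beyond ICAM5, was called lower in DU145 (-1.15 ± 0.43) and did not pass in PC3 (0.36 ± 0.42). S1PR2, beyond MRPL4, passed in neither line (0.15 ± 0.20 and -0.47 ± 0.19).

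BIRC3 (chr11:102317450-102339403, plus strand) encodes cIAP2, an inhibitor of apoptosis that works with TRAF adaptors at tumour necrosis factor receptors. Its direction in DU145 was opposite to that of ICAM1: resistant DU145 libraries had 73.3, 64.0 and 62.1 CPM, against 150.4, 145 and 142 CPM in parental DU145. Every resistant DU145 library was under every parental one (log2 change -1.13 ± 0.08, adjusted p = 7.4e-09, edgeR quasi-likelihood test). BIRC3 in resistant PC3 libraries was at 28.8, 26.5 and 27.7 CPM, against 25.9, 24.8 and 30.3 CPM in parental PC3. These groups overlapped, with a change of 0.03 ± 0.08 (adjusted p = 0.779, edgeR). BIRC2, the adjacent gene for the related protein cIAP1, had a change of 0.05 ± 0.07 in DU145 (adjusted p = 0.679) and -0.35 ± 0.07 in PC3 (adjusted p = 6.84e-04, both edgeR). The other neighbours YAP1 (-0.40 in DU145 and -0.19 in PC3) and TMEM123 (-0.60 and -0.51) were called lower in both lines, and AP001527 passed in neither.

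The difference between the 2 lines was itself tested, as the PC3 change minus the DU145 change. The resistant sublines also differ in their labelled docetaxel concentrations, so cell line and level of resistance cannot be told apart here. It was called for 9 of the 10 genes, where 42.1% of all genes tested were called: 8 were lower in PC3 than in DU145 (20% of all genes) and BIRC3 was higher (22.1%). At 2-fold or more, 6 were lower (11.7%) and 1 higher (9.35%). The median difference of the 10 was -1.55, against 0.02 over all genes. The largest difference was that of ICAM1, at -4.48 ± 0.06 (adjusted p = 3.91e-16, edgeR quasi-likelihood test). NFKBIE differed by -2.18 ± 0.18, NFKB2 by -1.97 ± 0.09 and NFKBIA by -1.93 ± 0.06. TNFAIP3, higher in both resistant sublines, still differed by -1.64 ± 0.10, since its rise was larger in DU145. RELB differed by -1.45 ± 0.19, RELA by -0.55 ± 0.07 and NFKB1 by -0.35 ± 0.08, and BIRC3 by 1.17 ± 0.11; the adjusted p of these 9 genes was at most 0.00124. REL alone did not pass, at 0.19 ± 0.22 (adjusted p = 0.551, edgeR), but with AC010733 counts added it did, at 0.48 (adjusted p = 0.00502).

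The parental lines also differed from each other in these genes. This comparison uses the same parental libraries as the resistance comparisons, so its values are set beside theirs and not read as separate evidence. Of the 10 genes, 5 were higher (30.9% of all genes tested) and 3 lower (29.5%) in parental PC3 than in parental DU145, where 60.3% of all genes were called. At least 2-fold were 1 higher (19.2%) and 2 lower (16.7%), and 7 had groups that did not overlap, where 67.7% of all genes did not. ICAM1 averaged 653 ± 19.2 CPM in parental PC3 and 110.1 ± 5.77 CPM in parental DU145 (log2 change 2.57 ± 0.04, adjusted p = 2.42e-16, edgeR quasi-likelihood test). BIRC3 averaged 27.0 ± 2.91 CPM in parental PC3 and 146 ± 4.30 CPM in parental DU145 (-2.43 ± 0.08, adjusted p = 3.18e-13, edgeR). These were the 2 largest differences of the 10 genes, and neither pair of groups overlapped. REL was also lower in parental PC3 (-1.40 ± 0.16), NFKB1 slightly so (-0.31 ± 0.05), while NFKBIA (0.89 ± 0.04) and NFKB2 (0.57 ± 0.06) were higher. RELA (0.14 ± 0.05, adjusted p = 0.0188) and TNFAIP3 (0.18 ± 0.07, adjusted p = 0.0316) were called in this fit by edgeR but lost the call in 12 and 14 of 21 alternatives. RELB (-0.03 ± 0.13) and NFKBIE (0.09 ± 0.13) did not pass.

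Ordered by mean level over the 4 groups, resistant DU145 was highest for 6 genes, NFKB1, NFKB2, RELB, NFKBIA, NFKBIE and TNFAIP3, though its libraries overlapped those of the next group for NFKB1 (parental DU145) and NFKB2 (parental PC3). Resistant PC3 was lowest for 5 genes, NFKB1, NFKB2, RELA, RELB and NFKBIE, and stood apart from the next group in each. How often each group was highest or lowest over all genes was not computed, so these counts have no background beside them. For REL and BIRC3 both DU145 groups were above both PC3 groups, and the PC3 groups overlapped each other. The highest mean was 6.17 times the lowest for TNFAIP3, 5.93 times for ICAM1 and 5.41 times for BIRC3, but only 1.58 times for NFKB1 and 1.54 times for RELA.

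Other genes of the pathway were read from lists chosen with earlier results of these data known, so their counts are descriptions. Among the 4 other IkB-family genes, 3 were higher and none lower in resistant DU145, and 1 was higher and 2 lower in resistant PC3. Beside them, 18.9% of all genes were higher and 20.7% lower in DU145, and 22.4% higher and 21.6% lower in PC3. NFKBIZ, a nuclear IkB protein that acts as a coactivator, averaged 26.7 CPM in resistant and 8.28 CPM in parental DU145 (log2 change 1.69 ± 0.10), and 111 CPM in resistant and 215 CPM in parental PC3 (-0.96 ± 0.09). BCL3, which partners p50 and p52 homodimers in the nucleus, averaged 59.0 CPM in resistant and 23.6 CPM in parental DU145 (1.32 ± 0.11), and 17.2 CPM in resistant and 21.7 CPM in parental PC3 (-0.34 ± 0.11). Both thus moved as NFKBIA did, whereas NFKBIB, which encodes IkB-beta, was higher in resistant PC3 (0.33 ± 0.09) and did not pass in DU145 (0.15 ± 0.09). NFKBID was higher in resistant DU145 (0.91 ± 0.25) and did not pass in PC3 (0.63 ± 0.25). The called changes in this list had an adjusted p of at most 0.0158 (edgeR quasi-likelihood test).

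Of 17 receptors tested, 9 were higher and 3 lower in resistant DU145 (median log2 change 0.20), where 18.9% of all genes were higher and 20.7% lower. In resistant PC3, 6 were higher and 6 lower (median 0.27), where 22.4% of all genes were higher and 21.6% lower. TNFRSF1B, the second tumour necrosis factor receptor, averaged 0.25 CPM in resistant and 9.80 CPM in parental DU145 (-5.26 ± 0.34), while in PC3 it did not pass (0.64 ± 0.28). TLR2 and TLR3, receptors for microbial lipoproteins and double-stranded RNA, were lower in resistant DU145, at 0.02 and 0.13 CPM, than in parental DU145, at 1.16 and 1.27 CPM. In PC3, TLR3 was higher at 3.07 CPM in resistant against 0.55 CPM in parental libraries, TLR2 was lower at 2.38 against 5.71 CPM, and the death receptor TNFRSF21 was lower at 178 against 741 CPM (-2.06 ± 0.07). Of 9 ligands tested, none was higher and 3 were lower in resistant DU145, and 2 were higher and 3 lower in resistant PC3. Over all genes 18.9% were higher and 20.7% lower in DU145, and 22.4% higher and 21.6% lower in PC3. With 9 ligands tested, the counts say little about the ligands as a list. LTB, a ligand of the receptor that drives the non-canonical branch, was lower in both, at 0.22 CPM in resistant against 9.55 CPM in parental DU145, and at 0.24 CPM in resistant against 3.67 CPM in parental PC3. IL18, an interleukin of the IL-1 family, had a change of -0.73 ± 0.08 in DU145 and 1.67 ± 0.08 in PC3. IL1B, of the same family, averaged 286 CPM in resistant and 104 CPM in parental PC3 (1.46 ± 0.15). In DU145, at 0.13 and 0.34 CPM, IL1B did not pass. TNFSF10 was lower in resistant PC3, at 0.28 against 5.88 CPM in parental PC3. TNFSF12 was lower in both resistant sublines (-0.61 ± 0.13 in DU145 and -0.38 ± 0.13 in PC3). The called changes named among receptors and ligands had an adjusted p of at most 0.0359 (edgeR quasi-likelihood test).

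Of 24 kinases and adaptors between receptor and IkB, 5 were higher and 8 lower in resistant DU145 (median -0.08; 18.9% and 20.7% of all genes), and 7 were higher and 9 lower in resistant PC3 (median -0.10; 22.4% and 21.6% of all genes). MAP3K14, the kinase NIK that starts p100 processing, averaged 25.5 CPM in resistant and 10.7 CPM in parental PC3 (1.25 ± 0.09), and 56.3 CPM in resistant and 78.4 CPM in parental DU145 (-0.48 ± 0.08). Its changes were thus opposite in sign to those of NFKB2 in both lines. RIPK1, a scaffold kinase at the tumour necrosis factor receptor, was higher in resistant DU145 (0.98 ± 0.09), and IKBKE, an IKK-related kinase, was lower in resistant PC3 (-1.25 ± 0.09). Of 14 other negative regulators, 3 were higher and 5 lower in resistant DU145, and 5 were higher and 2 lower in resistant PC3, beside 18.9% of all genes higher and 20.7% lower in DU145 and 22.4% higher and 21.6% lower in PC3. CYLD, a deubiquitinase that restrains IKK, was lower in resistant DU145, at 40.2 CPM against 76.7 CPM in parental DU145, and higher in resistant PC3, at 89.7 CPM against 39.2 CPM in parental PC3. TNIP1, an A20 partner and itself an NF-kB target, had the reverse signs, 0.63 ± 0.04 in DU145 and -1.10 ± 0.04 in PC3.

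Of 25 other target genes tested, 16 were higher and 8 lower in resistant DU145 (median log2 change 0.95), and 11 were higher and 8 lower in resistant PC3 (0.23). Of all genes tested, 18.9% were higher and 20.7% lower in DU145, and 22.4% higher and 21.6% lower in PC3. Among those with at least 1 CPM in a group, the largest changes in DU145 were falls of CSF2, a myeloid growth factor, at 0.07 CPM in resistant and 7.56 CPM in parental libraries, and of BCL2A1, an anti-apoptotic BCL2 relative, at 0.21 CPM in resistant and 11.9 CPM in parental libraries. The same pair was higher in resistant PC3, where CSF2 had 10.3 CPM against 1.15 CPM in parental PC3 and BCL2A1 had 18.3 CPM against 2.73 CPM. PTGS2, the inducible cyclooxygenase, was lower in resistant PC3, at 0.29 CPM against 66.3 CPM in parental PC3, and higher in resistant DU145, at 1.86 CPM against 0.33 CPM in parental DU145. LAMB3, a laminin subunit, was higher in both resistant sublines, at 715 against 127 CPM in DU145 and 399 against 56.0 CPM in PC3. Each of these calls has an adjusted p of at most 0.0167 in edgeR's quasi-likelihood test. CSF2 and BCL2A1 thus had signs opposite to those of ICAM1 in both lines, and PTGS2 had the same signs.

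**Figure D5:**
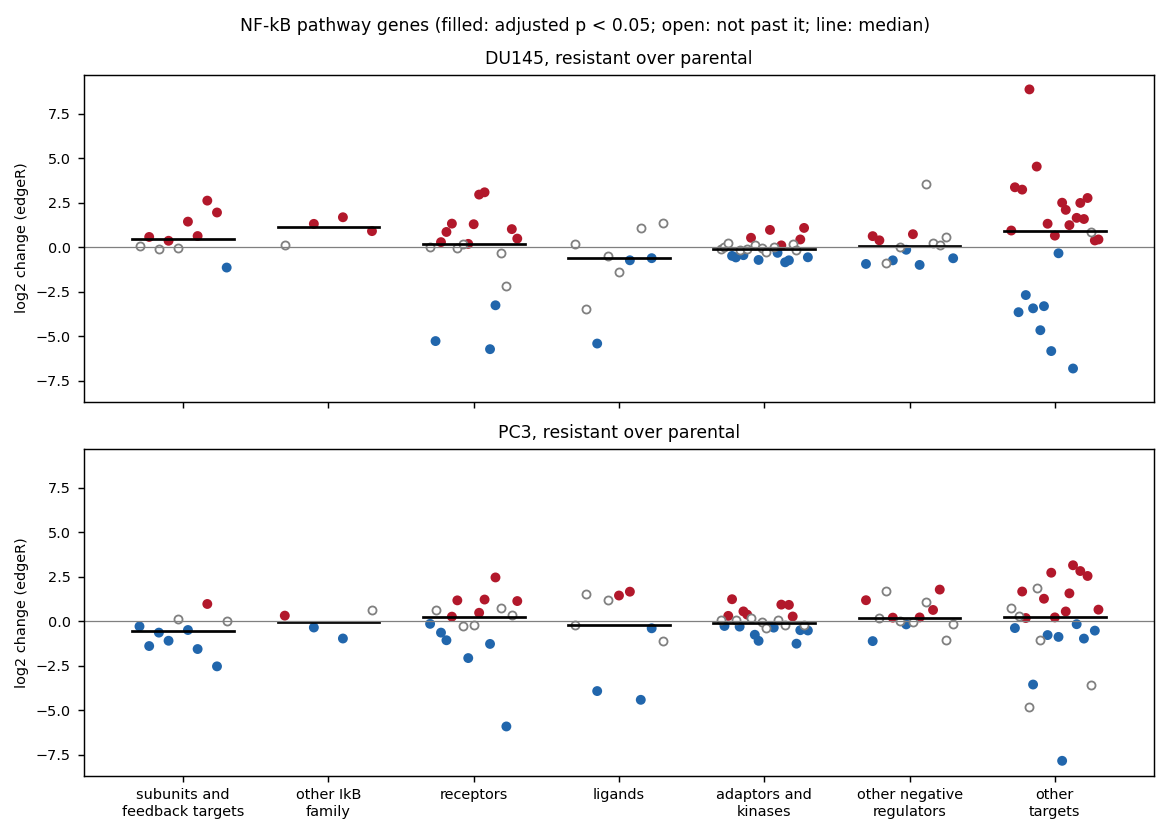
Log2 change with resistance (edgeR) of every tested gene of the pathway lists in DU145 (top) and PC3 (bottom); 1 point per gene, filled where the adjusted p is under 0.05 and open where it is not, with the list median as a line. The IkB family and other targets have their highest medians in DU145, at 1.12 and 0.95, while the medians in PC3 lie between -0.55 and 0.27.

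NFKBIA and BIRC3 were compared with other genes by the correlation of log2 CPM over the 12 libraries. These share 4 group means, so the values describe likeness only. The 12202 genes searched include the 10 genes described here, which were left out of the ranking. The closest to NFKBIA were the mitochondrial transcripts MT-ND4L (Pearson r = 0.993) and MT-CO2 (r = 0.991) and the nuclear gene MARVELD1 (r = 0.989). The closest to BIRC3 were LGR4 (r = 0.996), NIPBL (r = 0.996) and GPC1 (r = 0.994). GPC1, for example, averaged 134 CPM in resistant and 352 CPM in parental DU145, and 51.3 CPM in resistant and 59.4 CPM in parental PC3.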

How the data were processed

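RNA was measured by paired-end, poly(A)-selected, dUTP-stranded sequencing, per the labels' protocols. The authors deposited 1 table per library holding, for every gene, whole-number counts beside FPKM values; 71 genes have no FPKM. Per the submitters' processing notes, HISAT2 2.0.4, StringTie 1.3.4d and cutadapt 1.9 were used beside edgeR and DESeq2, in no stated order, and the build was hg18, but the coordinates are those of GRCh38 (of 37385 genes shared with a GENCODE table, 37345 overlap). Which program counted reads, and whether by strand, is not given in the sources used here, so genes that overlap another are uncertain. At 5 to 10 counts the variance between libraries was 7.72 to 8.49 times the mean, so counts were not treated as independent molecules.

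Counts were filtered with filterByExpr (24128 genes), scaled by TMM and fitted in edgeR 4.0.16 (R 4.3.3) with 1 mean per group over 12 libraries (8 residual degrees of freedom) and two-sided quasi-likelihood F tests; p-values were adjusted by Benjamini-Hochberg over all genes tested. The standard error of a log2 change is its size over the square root of F. CPM uses the TMM-scaled total. FPKM is used between genes, for the subunit sums, shares and inhibitor ratios of each group, and in the limma alternatives. It is taken as deposited, without TMM scaling. Alternatives used DESeq2 1.42.0 and limma 3.58.1 on log2(FPKM + 1) and log2(FPKM + 0.1), a replicate block, other filters and scalings, and each library left out; 2 were chosen after seeing the data (mitochondrial genes left out; REL and AC010733 counts summed). The fit was tested on simulated data. Replicate numbers did not pair the libraries (correlations -0.11 to 0.03 over 9 same-numbered pairs).

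The 10 genes and all lists were chosen with earlier results of these data known. Genes named from a wider list were picked from the called genes of largest change, up to 3 per comparison. These had at least 1 CPM in a compared group. Not all of them are named (RNF31, RNF11, PDLIM2 and CCL20 are among those left out). IL1RAP and IL18R1 were named in addition, as receptors that were higher in resistant DU145. Where 5 or fewer uncalled genes are counted, only some are named. The neighbours of a gene on its chromosome and the summed REL counts were chosen after values were seen. Genes most like a member were ranked among those with a mean of at least 5 CPM.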

Additional observations from a re-analysis of the deposited data

Results flagged for a closer look

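The change with resistance differed between the 2 lines, by a test of the difference itself (PC3 minus DU145, edgeR quasi-likelihood test adjusted over all genes), in 9 of the 10 genes. On the log2 scale the differences were -0.35 for NFKB1, -1.97 for NFKB2, -0.55 for RELA, -1.45 for RELB, -1.93 for NFKBIA, -2.18 for NFKBIE, -1.64 for TNFAIP3, -4.48 for ICAM1 and 1.17 for BIRC3. For NFKB2, RELB, NFKBIA, NFKBIE and ICAM1 the called changes had opposite signs in the 2 lines, and the share of all genes with opposite signs was not computed. TNFAIP3 was higher in both resistant sublines, and for NFKB1, RELA and BIRC3 the change was called in 1 line alone. Over all genes tested 42.1% were called in the same test. Cell line and the labelled docetaxel concentration differ together and cannot be told apart.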

How the results depend on the processing

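Across 21 alternatives (20 for the difference between lines) the numbers of genes and of members called stayed within 1.5 times the values reported in all 166 cases. Members called ran from 6 to 7 in DU145, 8 to 9 in PC3, 6 to 8 between the parental lines and 9 to 10 for the difference between lines. Of 830 member log2 changes, 787 kept their direction and side of the threshold, 31 lost the call, 4 gained it and 8 changed sign, all 8 in changes that were not called. With each library left out in turn, these uncalled changes ranged from -0.13 to 0.042 for REL in DU145, from -0.018 to 0.12 for BIRC3 in PC3 and, between the parental lines, from -0.089 to 0.042 for RELB and from -0.00486 to 0.18 for NFKBIE. With limma on log2(FPKM + 1), BIRC3 in PC3 became -6.097e-04. Lost calls were RELB in DU145 (5 alternatives; adjusted p = 0.0505 without the low-count filter, edgeR) and, between parental lines, RELA (12, adjusted p up to 0.12) and TNFAIP3 (14, up to 0.138). Without the second resistant library of PC3, REL was called in PC3 (0.37, adjusted p = 0.0145, edgeR) and in the difference between lines (0.40, adjusted p = 0.0441). With the replicate block, 9155 genes and 7 members were called for DU145, 10219 and 8 for PC3, 14093 and 8 between the parental lines and 9759 and 9 for the difference, and no member gained or lost its call. The causes of these changes were not tested.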
